A study of Mus musculus with 768 samples.

Results

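The Wnt target and feedback genes described here are 10 genes chosen by symbol: Axin2, Nkd1, Notum, Rnf43, Znrf3, Lef1, Tcf7, Tcf7l2, Sp5 and Tnfrsf19. Each symbol was present in both deposited count tables, which list 52636 genes. In canonical Wnt signalling, a Wnt ligand bound to Frizzled and Lrp receptors stops a destruction complex that contains the kinase GSK3, so that beta-catenin accumulates and acts with TCF/LEF factors on target genes. Several targets encode proteins that act back on the pathway, and in the cochlea the pathway is known for its part in the division of supporting cells and of the cells of the greater epithelial ridge. CHIR99021, an inhibitor of GSK3, acts below the receptors and stabilises beta-catenin without a ligand.

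The cells came from the greater epithelial ridge, the epithelium on the inner side of the hair cells, of postnatal day 2 mice of the strain Fgfr3-CreERT2/Ai14-tdTomato/Sox2-GFP. They were enriched by flow cytometry and grown as organoids for 1, 3 or 7 days. The medium of all cultures held 3 µM CHIR99021, 500 µM valproic acid, 2 µM TGFβ receptor inhibitor 616452, EGF at 20 ng/mL, FGF2 at 10 ng/mL and IGF1 at 50 ng/mL, so that no culture without the GSK3 inhibitor was measured. Dissociated cells were picked by hand and made into libraries by SmartSeq2, which copies whole transcripts and adds no molecular identifiers. There were 768 cells in 3 cultures of day 1, 3 of day 3 and 5 of day 7, and 711 cells were retained (182, 228 and 301 in the same order). The culture, a day and a replicate number in the labels, was the unit of comparison. The labels do not say whether cultures came from separate animals, so p-values measure only the spread between these cultures, which may be technical.

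Summed over retained cells, a culture had between 26391412 and 72483565 reads. All 9 markers of the greater epithelial ridge (among them Tecta, Otoa and Epyc) had a mean of at least 1 CPM on each day, and their summed level was between 9674 and 14133 CPM in day 1 cultures, between 4092 and 8186 on day 3 and between 2218 and 4884 on day 7. The largest part on day 1 was Tectb, with means of 8308, 3622 and 692 CPM on days 1, 3 and 7. From day 1 to day 7 the mean of Fst went from 90.6 to 2.69 CPM and that of Stmn2 from 35.0 to 5.50. Calb1 went the other way, from 8.13 to 30.6, and Crabp1 was level, at 50.1 and 50.2. The 7 genes of the cochlear epithelium, among them Epcam and Cdh1, summed to between 3463 and 5714 CPM on day 1, 3495 and 5525 on day 3 and 1865 and 2833 on day 7, and Oc90 had no read on day 7. The 10 supporting cell genes summed to between 727 and 1240, 776 and 1049 and 747 and 1937 CPM in the same order. CPM relates the counts of a gene, summed over a culture, to all counts of that culture, with TMM scaling. Of the markers of other cell types, the 10 hair cell genes summed to between 41.0 and 82.9 CPM in day 1, 56.5 and 347 in day 3 and 28.7 and 54.0 in day 7 cultures. The 7 neuronal genes summed to between 56.2 and 126 CPM on day 1, 72.9 and 149 on day 3 and 4.09 and 14.7 on day 7. The 10 mesenchyme genes summed to between 882 and 1024 CPM on day 1, 518 and 657 on day 3 and 383 and 1805 on day 7, nearly all of it from Lum, while Col3a1 had no read on days 1 and 7. Glial genes were at or below 60.6 CPM, with Foxd3 and Cdh19 without a read, endothelial genes at or below 11.2, immune genes at or below 3.75 and melanocyte genes at or below 15.4. Cells with reads of at least 3 of 6 division genes, called cycling here, made up 16.5% to 23.7% of the cells of a day 1 culture, 52.8% to 65.5% on day 3 and 25.3% to 87.0% on day 7. Day 7 culture 5 had the lowest share of cycling cells of its day, the highest median share of mitochondrial reads of any culture (6.76%) and the lowest median number of genes per cell (5681). The part of these shifts in the results below was not tested, except where cycling and other cells are given apart.

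The promoters of 3 members are shown first because they hold the letters CTTTGA, 1 form of the core of the TCF/LEF binding sequence. The letters CTTTGA were searched on both strands, where the other strand reads TCAAAG, in the 250 bases before each annotated start (RefSeq, GRCm38.p6). They were present in 13.8% of 32851 such windows of the genome, and 1.37% held at least 2 matches. Windows were listed for 8 of the 10 members, and 3 of their 15 windows held a match. With so few windows this is near the 13.8% of all windows and is not read as a trait of the members. Sp5 had 2 matches, at -204 and -104 relative to its start. Lef1 had 2 matches before an internal start and none before its first start, and Tnfrsf19 had 1 match before an internal start. The window of Axin2 held none, which says only that these letters are not in these bases. In the sequences, matches are in capitals. The form CTTTGT was not searched and is left in small letters, for example in the Sp5 window.
Sp5, chr2:70474673-70474922, plus strand: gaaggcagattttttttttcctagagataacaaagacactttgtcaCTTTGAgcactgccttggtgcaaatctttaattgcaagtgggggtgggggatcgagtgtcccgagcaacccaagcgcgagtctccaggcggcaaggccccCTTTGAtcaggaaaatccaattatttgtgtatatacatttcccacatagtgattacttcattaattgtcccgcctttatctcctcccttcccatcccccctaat
Lef1 internal start, chr3:131156044-131156293, plus strand: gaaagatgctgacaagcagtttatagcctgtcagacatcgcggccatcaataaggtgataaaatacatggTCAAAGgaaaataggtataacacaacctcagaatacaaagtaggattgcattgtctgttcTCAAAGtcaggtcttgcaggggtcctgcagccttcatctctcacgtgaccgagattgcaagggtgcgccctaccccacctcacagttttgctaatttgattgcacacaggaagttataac
Lef1 first start, chr3:131110047-131110296, plus strand: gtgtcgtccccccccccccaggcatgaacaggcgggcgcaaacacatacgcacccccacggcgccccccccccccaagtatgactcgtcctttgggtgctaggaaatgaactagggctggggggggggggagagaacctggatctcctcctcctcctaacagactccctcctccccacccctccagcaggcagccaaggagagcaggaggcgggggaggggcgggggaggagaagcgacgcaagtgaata
Tnfrsf19 internal start, chr14:61037988-61038237, minus strand: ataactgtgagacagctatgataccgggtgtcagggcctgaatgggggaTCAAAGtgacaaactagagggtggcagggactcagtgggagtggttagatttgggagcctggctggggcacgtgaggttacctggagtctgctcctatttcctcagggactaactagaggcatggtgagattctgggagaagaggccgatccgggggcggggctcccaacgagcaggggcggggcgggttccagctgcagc
Axin2, chr11:108920099-108920348, plus strand: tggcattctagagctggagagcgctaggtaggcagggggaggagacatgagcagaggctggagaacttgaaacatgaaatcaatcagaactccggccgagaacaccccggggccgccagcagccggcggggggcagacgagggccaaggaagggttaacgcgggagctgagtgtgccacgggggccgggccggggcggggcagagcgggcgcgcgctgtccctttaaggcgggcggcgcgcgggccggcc
A match is a description of the letters and does not show that a factor binds there.

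Between day 1 and day 7, 4 of the 9 members that passed the filter on low counts were called higher and 1 lower. The 5 were not of 1 arm of the pathway. Lef1 and Tcf7, both TCF/LEF factors, rose, as did the inhibitor gene Nkd1 and the receptor gene Tnfrsf19, while the factor gene Tcf7l2 fell. A gene was called at a Benjamini-Hochberg adjusted p under 0.05 in edgeR's quasi-likelihood test, adjusted over 17466 genes. Among all these genes 3.55% were called higher on day 7 than on day 1 and 3.56% lower. The median log2 fold change of the 9 members was 1.34, with 8 of them above 0, beside a median of 0.003 over all tested genes, of which 50.1% were above 0. At an unadjusted p under 0.05 were 7 of the 9 members and 23.6% of all genes. Notum did not pass the filter and is not part of these counts. The members were chosen with earlier results of these data known, so the contrast with all genes is not independent of those results.

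**Figure D1:**
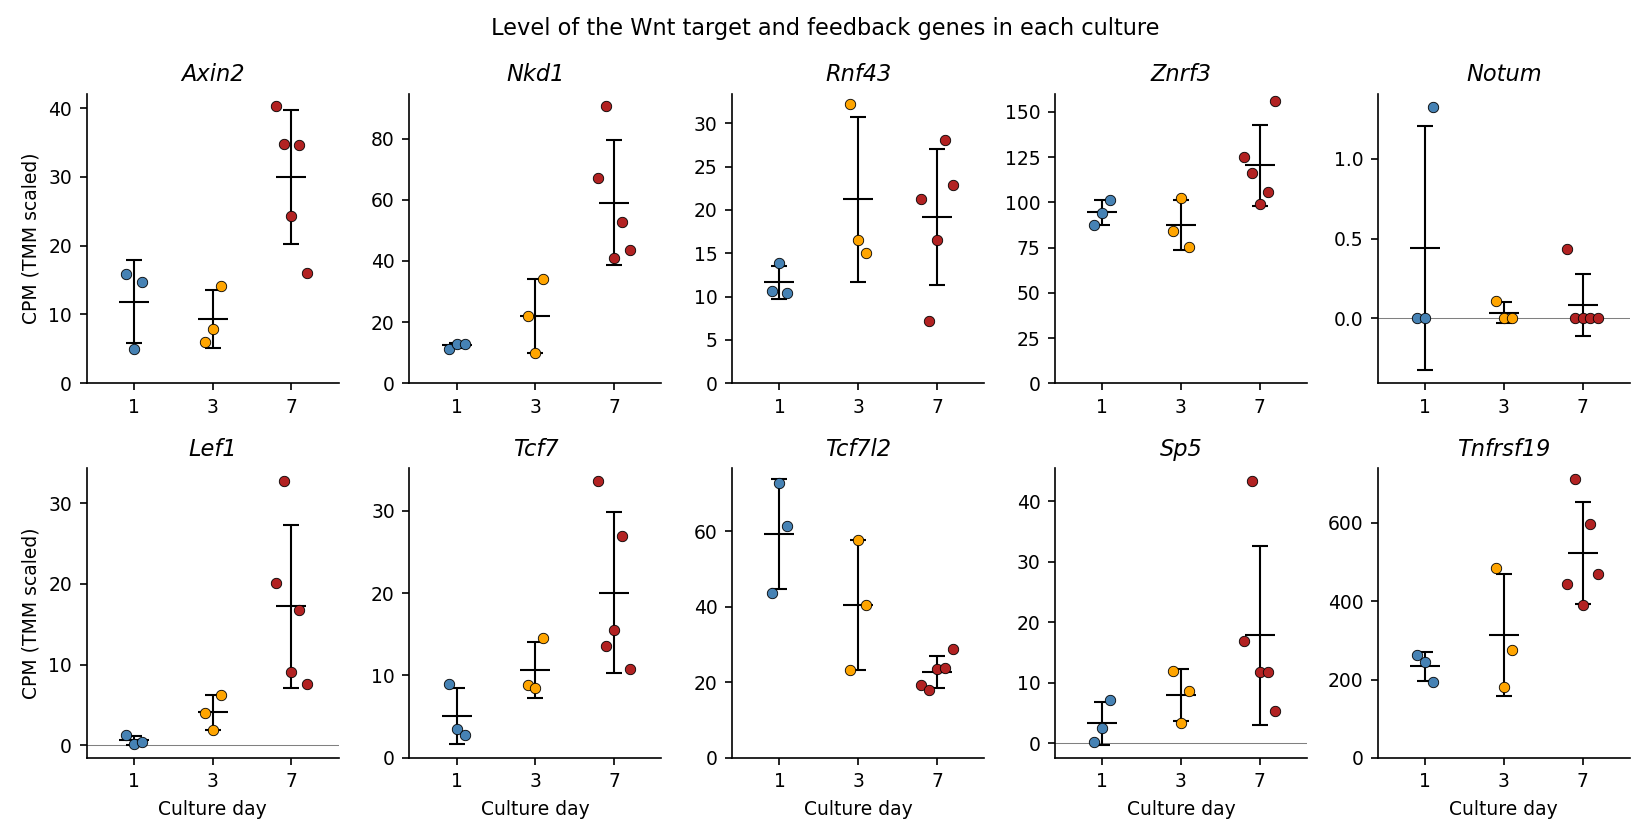
Level of each of the 10 genes in CPM (vertical axes, each panel with its own scale) by culture day (horizontal axis). Points are cultures (3, 3 and 5), the short lines are means and the bars ± 1 SD. For Nkd1, Lef1, Tcf7, Axin2 and Tnfrsf19 every day 7 culture lies above every day 1 culture, for Tcf7l2 every one lies below, and Notum stays under 1.4 CPM.

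Among the feedback genes Axin2, Nkd1, Rnf43 and Znrf3, Nkd1 had the largest fitted change from day 1 to day 7. Nkd1 (ENSMUSG00000031661.12, chromosome 8 from 88521354 to 88594884, plus strand, GRCm38) encodes a protein that binds Dishevelled and dampens the signal. Its level was 11.3, 13.0 and 12.8 CPM in the day 1 cultures, 22.0, 9.93 and 34.0 in the day 3 cultures and 67.1, 90.7, 41.0, 52.9 and 43.6 in the day 7 cultures. The day 7 cultures were all above those of the other days, and the day 1 and day 3 cultures overlapped. As mean ± SD this was 12.4 ± 0.915 CPM over the 3 day 1, 22.0 ± 12.0 over the 3 day 3 and 59.0 ± 20.4 over the 5 day 7 cultures. From day 1 to day 7 its log2 fold change was 2.26 (SE 0.40, adjusted p 0.00723 in edgeR).

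Axin2 (ENSMUSG00000000142.15, chromosome 11 from 108920349 to 108950783, plus strand) encodes a scaffold of the destruction complex and is widely used as a reporter of canonical Wnt activity. Its level was 15.9, 4.95 and 14.7 CPM on day 1, 6.06, 7.84 and 14.1 on day 3 and 40.4, 34.7, 24.3, 34.6 and 16.0 on day 7. The lowest day 7 culture, number 5, was just above the highest day 1 culture, so that the groups did not overlap. The log2 fold change from day 1 to day 7 was 1.34 (SE 0.45), which missed the threshold (edgeR adjusted p 0.0904). From day 3 to day 7 it was 1.68 (SE 0.46, adjusted p 0.124 in edgeR). DESeq2 put both below 0.05, at adjusted p 0.0342 and 0.00671. DESeq2 called more of all genes than edgeR, 2318 against 1241 and 639 against 169 in the same order.

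Rnf43 and Znrf3 encode ubiquitin ligases that remove Frizzled receptors from the cell surface, and neither was called in any comparison. Rnf43 (ENSMUSG00000034177.15, chromosome 11 from 87662722 to 87735539, plus strand) was at 10.7, 13.8 and 10.4 CPM on day 1, 32.2, 16.5 and 15.0 on day 3 and 21.3, 7.19, 16.6, 28.0 and 22.9 on day 7. The log2 fold change from day 1 to day 7 was 0.72 (SE 0.41, adjusted p 0.317 in edgeR), and the day 7 cultures spanned those of day 1. Znrf3 (ENSMUSG00000041961.14, chromosome 11 from 5276324 to 5444847, minus strand) was at 87.8, 94.3 and 101 CPM on day 1, 84.4, 103 and 75.3 on day 3 and 125, 116, 99.1, 106 and 156 on day 7. Its log2 fold change from day 1 to day 7 was 0.35 (SE 0.19, adjusted p 0.276 in edgeR), the smallest of the 9 members.

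Notum (ENSMUSG00000042988.10, chromosome 11 from 120653788 to 120661175, minus strand) encodes a secreted enzyme that inactivates Wnt ligands by removing their lipid. It had 35 reads in 2 of 182 retained day 1 cells, 7 reads in 1 of 228 day 3 cells and 14 reads in 1 of 301 day 7 cells. Its level was 1.33 CPM in day 1 culture 3, 0.110 in day 3 culture 1 and 0.434 in day 7 culture 1, and the other 8 cultures had no read. For the 8 cultures without a read, a limit of 3 reads corresponds to between 0.0414 and 0.0942 CPM per culture and covers counting error only. In the edgeR fit with no filter on low counts, the adjusted p of Notum was 0.604 between days 1 and 7, 0.709 between days 1 and 3 and 0.97 between days 3 and 7, so that no difference between days was detectable at this level.

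Lef1 showed the largest change of the members. Lef1 (ENSMUSG00000027985.14, chromosome 3 from 131110471 to 131224356, plus strand) encodes a factor that binds beta-catenin and activates targets, and it is a target itself. Its level was 1.22, 0.205 and 0.416 CPM on day 1, 4.02, 1.90 and 6.27 on day 3 and 20.0, 32.7, 9.10, 16.7 and 7.53 on day 7. The 3 days did not overlap at any point, with day 3 between the others. Between day 1 and day 7 its log2 value changed by 4.82 (SE 0.79, adjusted p 0.0052 in edgeR). From day 1 to day 3 it was 2.74 (SE 0.75, adjusted p 0.261 in edgeR) and from day 3 to day 7 it was 2.08 (SE 0.67, adjusted p 0.212 in edgeR), neither past the threshold. The day 1 level rests on 66 reads in all, against 3842 on day 7.

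Tcf7 (ENSMUSG00000000782.15, chromosome 11 from 52252371 to 52283014, minus strand) encodes TCF1, which is made both in forms that bind beta-catenin and in shorter forms that do not. These forms are not told apart by counts per gene. Its level was 8.98, 3.48 and 2.80 CPM on day 1, 8.84, 8.52 and 14.5 on day 3 and 33.6, 13.5, 15.6, 26.9 and 10.8 on day 7. All day 7 cultures were above those of day 1, and 2 of them were below the highest day 3 culture. The log2 fold change from day 1 to day 7 was 1.98 (SE 0.51, adjusted p 0.0369 in edgeR).

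Tcf7l2 (ENSMUSG00000024985.18) encodes TCF4, the TCF factor known from intestinal crypts, and was the only member called lower. Its coordinates are not given because the annotation used here holds another version of the gene. Its level was 43.7, 72.8 and 61.3 CPM on day 1, 23.4, 57.7 and 40.5 on day 3 and 19.2, 18.0, 23.5, 23.9 and 28.9 on day 7. All day 7 cultures were below those of day 1, while day 3 overlapped both. The log2 fold change from day 1 to day 7 was -1.38 (SE 0.29, adjusted p 0.0147 in edgeR).

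Of the other targets, Tnfrsf19 (ENSMUSG00000060548.13, chromosome 14 from 60963875 to 61046490, minus strand), which encodes the TNF receptor family member TROY, was at 264, 245 and 193 CPM on day 1, 486, 180 and 275 on day 3 and 444, 712, 389, 597 and 470 on day 7. The day 7 cultures were all above those of day 1. The log2 fold change from day 1 to day 7 was 1.16 (SE 0.30, adjusted p 0.0384 in edgeR). Sp5 (ENSMUSG00000075304.2, chromosome 2 from 70474923 to 70477729, plus strand), the gene with 2 matches in the window shown above, encodes a zinc finger factor that represses Wnt targets. Its level was 0.232, 2.53 and 7.16 CPM on day 1, 12.0, 3.40 and 8.62 on day 3 and 16.9, 43.3, 11.8, 11.8 and 5.26 on day 7. Day 7 culture 5 was below day 1 culture 3, and the log2 fold change of 2.44 from day 1 to day 7 (SE 0.93) missed the threshold (edgeR adjusted p 0.129). DESeq2 and limma on the mean CPM per cell gave adjusted p-values of 0.02 and 0.0356. They called 2318 and 1795 of all genes, where edgeR called 1241. The fitted value of Sp5 was 6.41 in the first of the 2 deposited files alone and 0.13 in the second, 3.66 without day 1 culture 3 and 1.80 without day 7 culture 2, with no call in any of these (edgeR adjusted p from 0.0884 to 0.993).

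**Figure D2:**
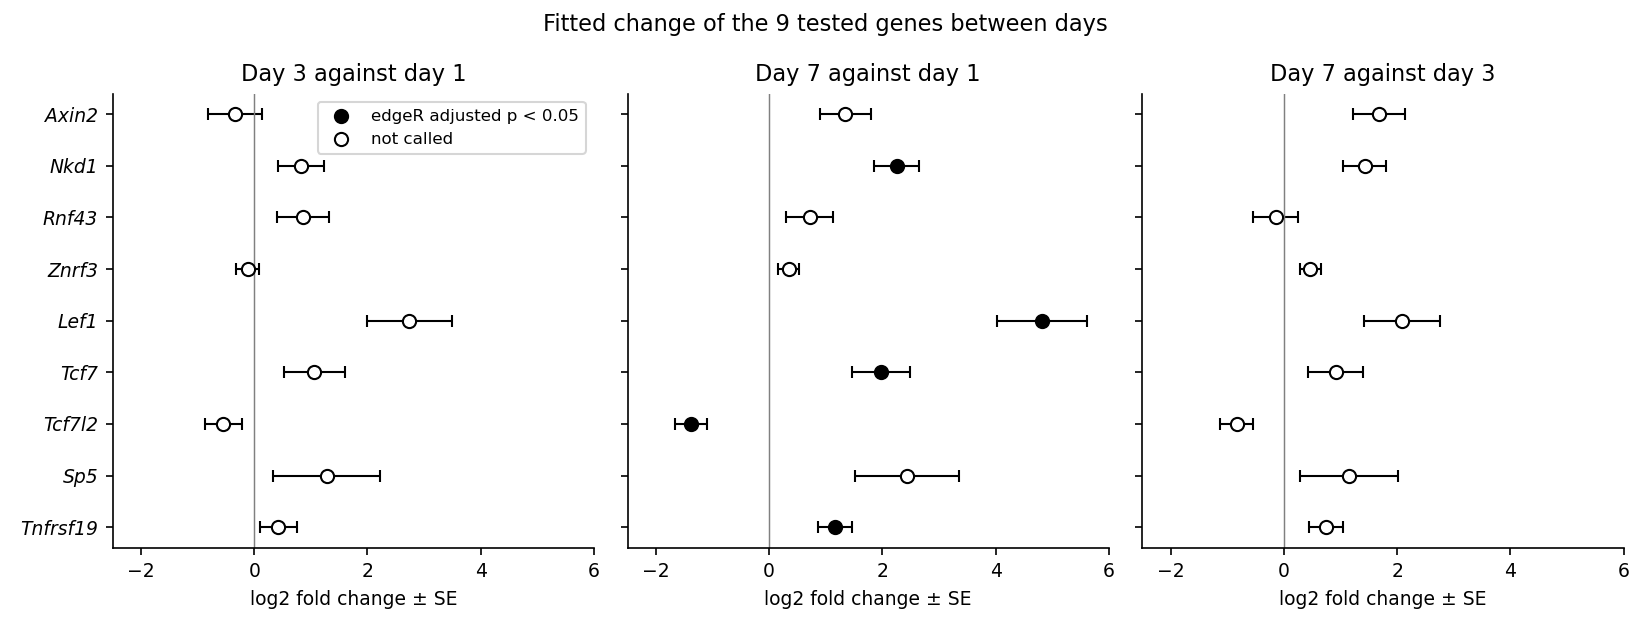
Fitted log2 fold change (horizontal axis) of the 9 tested members (vertical axis) in the 3 comparisons of days, with bars of ± 1 SE. Filled points have an edgeR adjusted p under 0.05, which holds for Nkd1, Lef1, Tcf7, Tcf7l2 and Tnfrsf19 in day 7 against day 1 and for no member in the other comparisons.

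Without overlap between cultures, 5 of 9 members were higher on day 7 than on day 1 (Axin2, Nkd1, Lef1, Tcf7 and Tnfrsf19), where 8.71% of all tested genes were, and Tcf7l2 was lower, where 9.06% of all genes were. Lef1 and Nkd1 stayed called in each of the 11 fits without 1 culture, with edgeR adjusted p-values of at most 0.0271 and 0.0413. Tcf7l2 was no longer called without day 1 culture 2 or 3 (0.0684 and 0.0505). Tcf7 missed the threshold without day 1 culture 2 or 3, without day 3 culture 1 and without day 7 culture 1, 3 or 4 (adjusted p from 0.0527 to 0.127 in edgeR). Tnfrsf19 lost its call without any 1 of the day 1 cultures, day 3 culture 3 or day 7 culture 2, 3 or 4 (adjusted p from 0.0505 to 0.135 in edgeR). With limma on the mean CPM per cell Tcf7 was at an adjusted p of 0.0846.

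The deposited counts came in 2 files of 384 cells, a possible batch, and within a file all 5 directions were the same but no member was called. In the first file, with 1 culture each of days 1 and 3 and 4 of day 7, the log2 fold changes from day 1 to day 7 were 3.95 for Lef1, 2.42 for Nkd1, 1.28 for Tcf7, 0.97 for Tnfrsf19 and -1.09 for Tcf7l2 (adjusted p from 0.156 to 0.433 in edgeR). In the second file, with 1 culture of day 7, they were 4.62, 1.76, 1.78, 1.10 and -1.21 in the same order (adjusted p from 0.117 to 0.266 in edgeR). A lone culture of a day was assumed to vary like the others. With the file as a term of the model, Tcf7 (edgeR adjusted p 0.0629) and Tnfrsf19 (0.0727) lost their calls.

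No member was called between day 1 and day 3, where 0.0115% of all genes were called higher, which is 2 genes. At an unadjusted p under 0.05 there was 1 of 9 members, Lef1, where 9.26% of all genes were, a share near that of the members. DESeq2 called Lef1 (adjusted p 0.017), but it called 259 of all genes here, 161 of them higher. It was the only 1 of 22 alternatives to call Lef1. Without overlap, Lef1 and Rnf43 were higher on day 3, beside 9.88% of all genes. The median log2 fold change of the members was 0.83, and 0.018 over all genes. Axin2 (-0.34, SE 0.48) and Znrf3 (-0.11, SE 0.20) had fitted log2 values below 0 within 1 SE, and Tcf7l2 was at -0.55 (SE 0.33, adjusted p 0.675 in edgeR).

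No member was called between day 3 and day 7 either, where 0.183% of all genes were called higher and 0.784% lower. Axin2, Nkd1 and Lef1 were higher in every day 7 culture than in every day 3 culture, beside 2.99% of all genes. Nkd1 had a log2 fold change of 1.43 (SE 0.38, adjusted p 0.118 in edgeR). DESeq2 called Axin2, Nkd1 (adjusted p 0.00533) and Lef1 (adjusted p 0.0238). It called 639 of all genes here, 227 of them higher, where edgeR called 169. Each of these members was called in 1 of 22 alternatives. The members' median was 0.92, and 0.010 over all genes. At an unadjusted p under 0.05 were 6 of 9 members, where 11.8% of all genes were. The 3 comparisons share cultures, so their values are not independent of each other.

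Lengths were those of the merged exons in GENCODE M21, which for Tcf7l2 holds another version of the gene than the files. Per length, Tnfrsf19 was the highest member on every day, with 49.4 ± 7.73 CPM per kilobase on day 1 (SD, n = 3), 66.2 ± 33.0 on day 3 (n = 3) and 110 ± 27.6 on day 7 (n = 5), and its range was above that of every other member. Znrf3 was next, with 12.0 ± 0.859, 11.1 ± 1.76 and 15.3 ± 2.82 CPM per kilobase, and on day 7 its range overlapped that of Nkd1 (13.0 ± 4.48). Tcf7l2 came after Znrf3 on day 1 (6.76 ± 1.67 CPM per kilobase), above all lower genes without overlap, and on day 7 (2.59 ± 0.494) only Lef1 and Notum were below it. On day 1 the genes from Nkd1 down to Lef1, the lowest at 0.070 ± 0.061 CPM per kilobase, overlapped with their neighbours in the order. On day 7 the same was true from Znrf3 down to Lef1 (1.96 ± 1.15), and Notum lay below without overlap.

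Of the TCF/LEF family the fourth gene, Tcf7l1, encodes TCF3, mainly a repressor. The 4 genes were compared as shares of their summed CPM per kilobase in each culture. Tcf7l2 made up 36.6%, 64.5% and 65.4% of the sum in the day 1 cultures, 26.3%, 47.5% and 32.6% in the day 3 cultures and 10.5%, 13.1%, 21.3%, 15.8% and 32.3% in the day 7 cultures. It held the largest share in 2 of 3 day 1 cultures and in none of the 5 day 7 cultures. Tcf7 made up 25.1%, 10.3% and 9.99% on day 1 and 61.4%, 32.9%, 47.3%, 59.5% and 40.2% on day 7, and held the largest share in all 5 day 7 cultures. Lef1 went from between 0.182% and 1.02% on day 1 to between 8.26% and 23.8% on day 7. Tcf7l1 held 28.8% ± 7.32 on day 1 (SD, n = 3) and 20.6% ± 6.36 on day 7 (n = 5), with overlapping cultures. The shares follow from the values above and were not tested on their own. They depend on the exon lengths used, that of Tcf7l2 being from another gene version, and without division by length Tcf7l2 had a mean share of 33.4% on day 7, above Tcf7 with 27.2% and Lef1 with 22.7%.

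**Figure D3:**
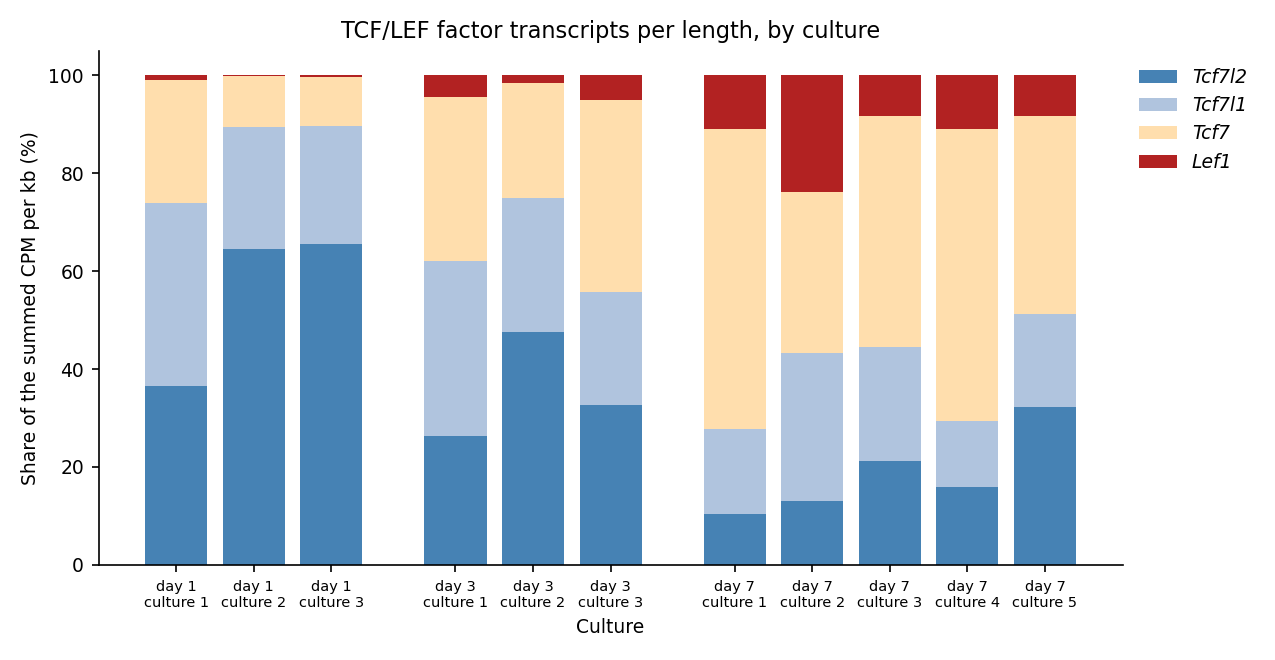
Share of each TCF/LEF gene in their summed CPM per kilobase of merged exons (vertical axis, %) in the 11 cultures (horizontal axis), as stacked bars. The Tcf7l2 share is between 36.6% and 65.4% on day 1 and between 10.5% and 32.3% on day 7, and the Lef1 share is highest in day 7 culture 2 (23.8%).

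A summed level does not tell more cells with a transcript from more transcript per cell, so each cell was also thinned to 200000 reads and the share of cells with at least 1 read was taken, over 695 cells deep enough. Lef1 was read in 3.85%, 1.18% and 2.63% of the cells of the day 1 cultures, 8.33%, 3.03% and 12.5% on day 3 and 53.8%, 45.9%, 23.2%, 34.6% and 18.7% on day 7. That is 4 of 175 cells, 18 of 222 and 95 of 298. The Lef1 cells of day 7 had a median of 6 Lef1 reads, and those of day 3 had 7.5. Nkd1 was read in 29.2% ± 8.62 of the cells on day 1 (SD, n = 3), 32.6% ± 11.2 on day 3 (n = 3) and 67.5% ± 9.06 on day 7 (n = 5), and the median in cells with a read went from 6 to 9 and 13 reads. The share of Nkd1 was higher in every day 7 culture than in every culture of the other days. The medians of single cultures were between 6 and 7.5 Nkd1 reads on day 1, between 7 and 10 on day 3 and between 7.5 and 21 on day 7, so that they met.

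Tnfrsf19 was read in 91.9% ± 2.46 of the cells on day 1 and 98.4% ± 1.75 on day 7, and cells with a read had a median of 40, 54 and 91 Tnfrsf19 reads on days 1, 3 and 7. Tcf7l2 was read in 84.2% ± 5.28 of the cells on day 1 and 70.5% ± 8.87 on day 7, with overlapping cultures, and the median over its cells with a read was 10, 7 and 5 reads. The medians of single cultures were between 6 and 11 Tcf7l2 reads on day 1 and between 3 and 6 on day 7, so that they met. Axin2 was read in 28.3% ± 9.38, 31.0% ± 4.56 and 56.5% ± 13.6 of the cells on days 1, 3 and 7, with medians of 7, 3 and 7 reads in cells with a read. Sp5 was read in 11.3% ± 7.30, 30.6% ± 5.85 and 44.3% ± 17.2, and Tcf7 in 19.3% ± 10.4, 35.1% ± 14.3 and 44.2% ± 14.4. Znrf3 was read in between 81.9% and 97.6% of the cells of any culture and Rnf43 in between 18.4% and 52.4%.

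The shares of Lef1, Nkd1, Sp5 and Tnfrsf19 were higher in every day 7 culture than in every day 1 culture, 4 of 9 members beside 3.52% of all tested genes. Those of Axin2, Nkd1 and Lef1 were higher on day 7 than on day 3 without overlap, beside 1.77% of all genes, and Sp5 was the 1 member higher on day 3 than on day 1, beside 8.97%. Of the 10 members, the median cell had a read of 4 in each day 1 culture and of 4 to 6 in the day 7 cultures. Cells with a read of at least 6 members made up between 9.41% and 13.2% of a day 1 culture, between 13.6% and 29.2% on day 3 and between 21.3% and 64.1% on day 7. Day 7 culture 5, with the fewest genes per cell of any culture, was the lowest of its day.

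**Figure D4:**
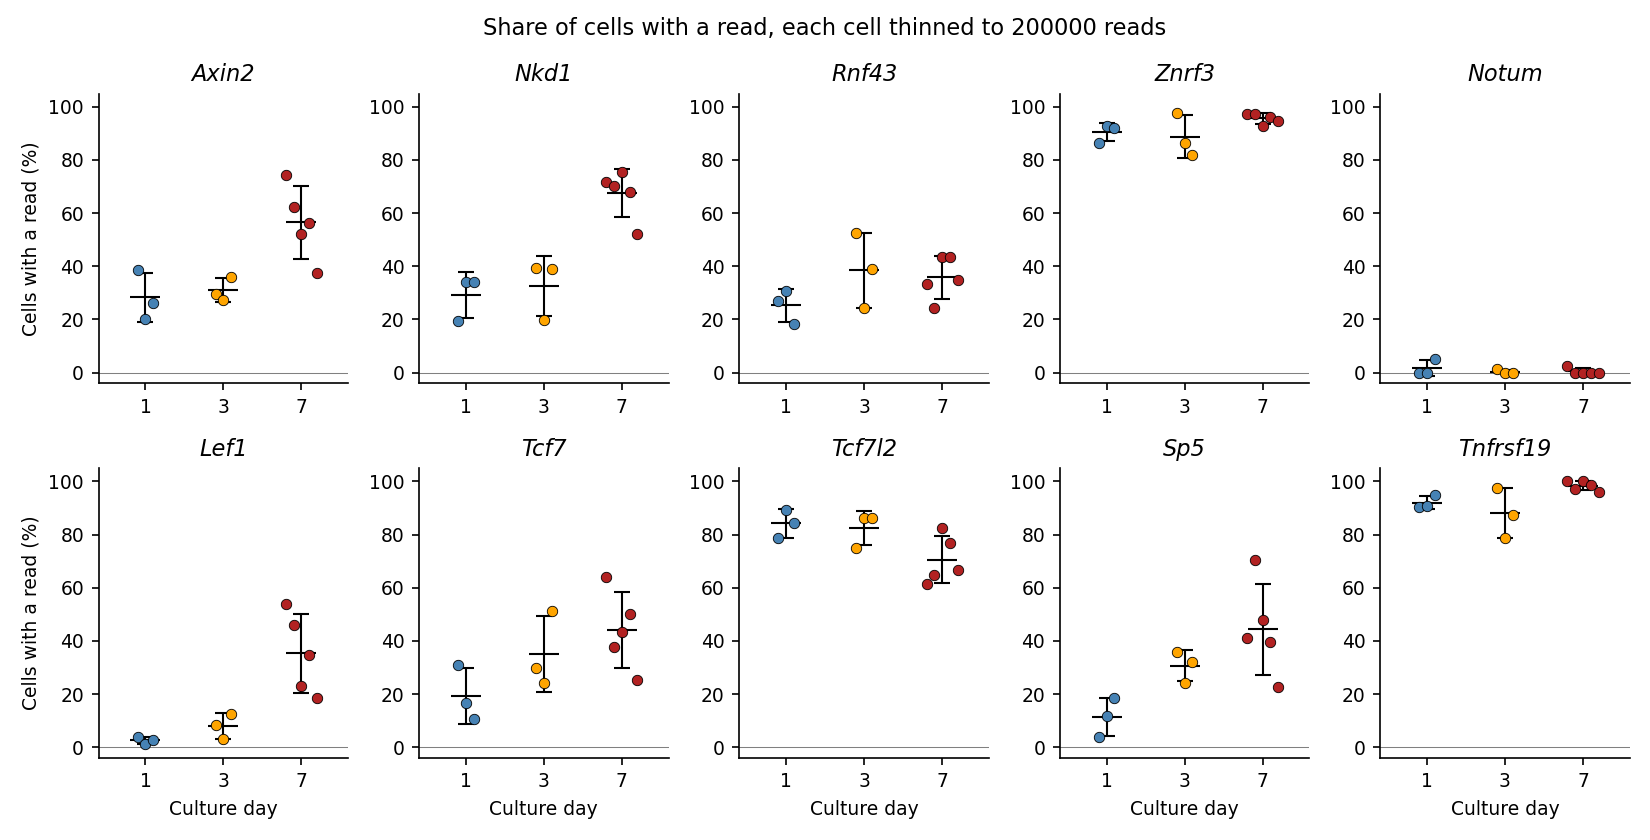
Share of cells with at least 1 read of each of the 10 genes (vertical axes, %) by culture day (horizontal axis), with each cell thinned to 200000 reads. Points are cultures (3, 3 and 5), short lines are means and bars ± 1 SD. Lef1 is at most at 12.5% before day 7, whereas Znrf3 and Tnfrsf19 are read in most cells on all days.

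Within the day 7 cultures, cells with a Lef1 read were set beside cells without one. Sp5 was read in 55.8% ± 15.7 of the Lef1 cells and 39.7% ± 16.8 of the others (SD, n = 5 cultures), higher in 5 of 5 cultures. Tcf7 was read in 55.9% ± 17.6 and 37.4% ± 9.77, again higher in 5 of 5, and Axin2 in 67.6% ± 13.5 and 50.7% ± 11.9, higher in 4 of 5. Tcf7l2 went the other way, with 64.8% ± 6.45 of the Lef1 cells and 73.6% ± 10.1 of the others, lower in 5 of 5 cultures. Nkd1 was at 68.8% ± 10.6 and 67.5% ± 10.9. With Axin2 in place of Lef1, Tcf7 was read in 54.9% ± 13.3 of the cells with an Axin2 read and 30.0% ± 12.3 of those without, higher in 5 of 5 cultures. Sp5 was at 43.2% ± 12.9 and 49.8% ± 23.4, higher in 1 of 5, and Nkd1 at means of 67.6% (cultures between 50.0% and 83.3%) and 68.6% (between 53.2% and 80.0%), higher in 2 of 5. Across cells the Spearman correlation of Lef1 with Axin2, as a mean over the day 7 cultures, was 0.26, a weak value from sparse reads given as a description. Axin2 was at -0.010 with Nkd1, 0.036 with Sp5 and 0.21 with Tcf7.

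The Lef1 cells also had more genes with a read at equal depth in 5 of 5 cultures, for example a median of 6516 against 5925.5 in culture 1 and 5363 against 4912 in culture 5. They were more often cycling in 5 of 5 cultures, with 66.7% against 44.4% in culture 1, 58.8% against 30.0% in culture 2, 93.8% against 84.9% in culture 3, 88.9% against 68.6% in culture 4 and 28.6% against 24.6% in culture 5. The part of either in the joint reads was not tested. The share of all genes higher in Lef1 cells in 5 of 5 cultures is not given here, so such counts have no background. Epcam or Cdh1, both epithelial genes, were read in all 95 Lef1 cells of day 7, and also in 100% of the cells without Lef1 in cultures 1 to 4 and 98.4% in culture 5.

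**Figure D5:**
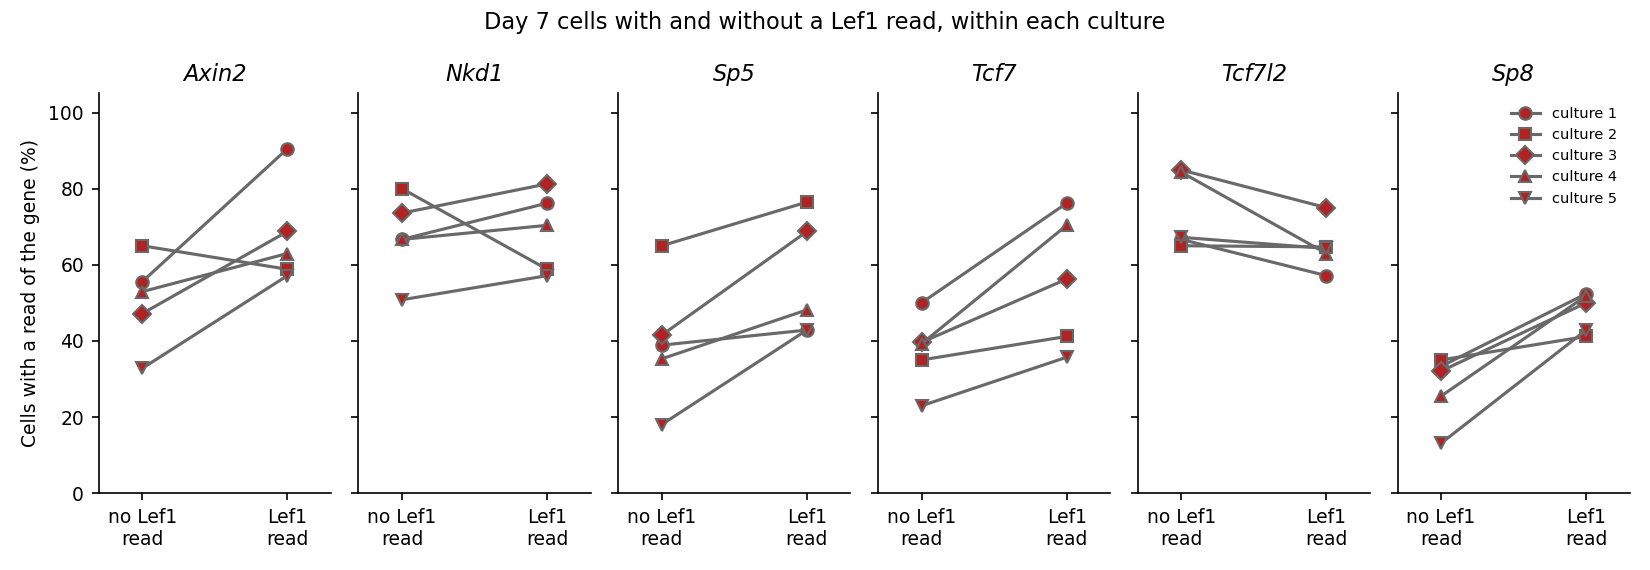
Share of day 7 cells with a read of each gene (vertical axis, %) among cells without and with a Lef1 read (horizontal axis), 1 line per culture. The lines of Sp5, Tcf7 and Sp8 go up and those of Tcf7l2 go down in all 5 cultures, while those of Axin2 and Nkd1 fall in culture 2.

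Cycling cells carried a Lef1 read more often in all 5 day 7 cultures (42.6% ± 20.1 against 23.9% ± 12.8 of the other cells, SD, n = 5). The same held for Sp5 (54.8% ± 18.6 against 29.3% ± 17.5) and Tcf7 (51.2% ± 17.1 against 33.3% ± 11.7). Axin2 and Nkd1 were higher in cycling cells in 3 of 5 day 7 cultures. The next values are means over cells thinned to 200000 reads, not the summed and TMM-scaled CPM used above. In cells that were not cycling, the mean level of Lef1 was 3.21, 0.423 and 0 CPM in the day 1 cultures and 28.5, 11.7, 6.67, 5.53 and 9.38 in the day 7 cultures, which did not overlap. With only these cells summed, from 9 to 71 cells per culture, the log2 fold change of Lef1 from day 1 to day 7 was 4.19 but no member was called (edgeR adjusted p 0.363 for Lef1, 0.0559 for Nkd1, 0.0888 for Tnfrsf19, 0.172 for Tcf7l2 and 0.279 for Tcf7). With only cycling cells, a choice made after seeing the data, Lef1 was called (5.33, edgeR adjusted p 0.0414). Nkd1 (1.55, edgeR adjusted p 0.103), Tcf7l2 (-1.15, 0.0533), Tnfrsf19 (0.72, 0.163) and Tcf7 (1.35, 0.278) were not. The day 1 cultures held only 10, 14 and 9 cycling cells. At equal depth Lef1 was read in 0%, 0% and 11.1% of them, so its fold change starts from a level near 0.

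Other genes of the pathway were followed in 8 lists. Over all tested genes, 3.55% were called higher on day 7 than on day 1 and 3.56% lower. Between day 3 and day 7 these shares were 0.183% and 0.784%. The calls in the lists are given by gene and were not tested as a set. Of the Wnt ligands 8 of 19 were tested and 1 was called between day 1 and day 7: Wnt7a, a ligand gene of the cochlear epithelium, rose from 62.2 ± 8.19 CPM (SD, n = 3) to 156 ± 20.5 (n = 5), a difference of 1.32 on the log2 scale (SE 0.18, adjusted p 0.0023 in edgeR). Of the R-spondins and their Lgr receptors 5 of 7 were tested. Lgr5, a receptor gene and itself a Wnt target, fell from 141 ± 40.7 CPM on day 1 to 26.8 ± 8.74 on day 7 (-2.39 on the log2 scale, SE 0.30, adjusted p 0.00158 in edgeR), while the targets Lef1 and Nkd1 rose. Both Wnt7a (0.83, edgeR adjusted p 0.0474) and Lgr5 (-1.45, edgeR adjusted p 0.0426) were also called between day 3 and day 7. Those 2 calls were lost without any 1 culture of day 1 or day 3, among others.

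Of 13 tested secreted or surface inhibitors 2 were called lower on day 7 than on day 1, beside 3.56% of all tested genes. None was called higher. Their median log2 fold change was -0.39, and 4 of 13 were above 0. Frzb, a decoy for Wnt ligands, went from 60.8 ± 12.9 to 3.75 ± 1.87 CPM (-4.02 on the log2 scale, SE 0.48, adjusted p 0.00117 in edgeR), and Wif1, which binds Wnt ligands outside the cell, from 35.8 ± 10.98 to 9.56 ± 1.76 (-1.90, SE 0.34, adjusted p 0.00743 in edgeR). Of 15 tested genes of the cytoplasmic machinery, only Nkd2, the paralog of Nkd1, was called, from 0.378 ± 0.361 CPM on day 1 to 13.8 ± 8.49 on day 7 (5.12, SE 0.99, adjusted p 0.0108 in edgeR). Leaving out day 1 culture 1 ended this call.

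None of 15 receptor genes was called in edgeR, and the 2 with the smallest p were Ryk (27.6 ± 4.05 CPM on day 1 and 15.0 ± 2.85 on day 7, adjusted p 0.0526) and Lrp6 (28.4 ± 3.17 and 18.3 ± 2.40, adjusted p 0.0955). The secretion genes Wls (406 ± 56.0 CPM on day 1 and 239 ± 59.9 on day 7, edgeR adjusted p 0.0562) and Porcn (12.0 ± 0.870 and 7.71 ± 5.16, edgeR adjusted p 0.499) were not called. Among 13 tested genes of beta-catenin and its nuclear partners none was called, with Ctnnb1 at 253 ± 59.2 and 368 ± 29.4 CPM (edgeR adjusted p 0.0808) and Tle1, a corepressor, at 45.6 ± 17.8 and 26.4 ± 9.48 (edgeR adjusted p 0.146).

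Of 11 tested genes known to respond to Wnt in other tissues, 3 were called higher on day 7 than on day 1, beside 3.55% of all tested genes. None of the 11 was called lower, but their median log2 fold change was -0.23 and 5 of 11 were above 0. Id2, an inhibitor of helix-loop-helix factors, went from 60.1 ± 24.0 to 284 ± 93.8 CPM (2.24, SE 0.35, adjusted p 0.0039 in edgeR) and Sox9, a factor of progenitors, from 74.5 ± 10.2 to 176 ± 34.6 (1.24, SE 0.20, adjusted p 0.00471 in edgeR). Sp8, a relative of Sp5, was between 0 and 0.0757 CPM in day 1 cultures, between 0 and 0.816 in day 3 cultures and between 12.1 and 45.4 in day 7 cultures (edgeR adjusted p 0.00277 against day 1). Within day 7, Sp8 was read in 47.7% ± 5.25 of the Lef1 cells and 27.8% ± 8.97 of the others, higher in 5 of 5 cultures. Id2 (1.68, edgeR adjusted p 0.0398) and Sp8 (edgeR adjusted p 0.0272) were also called between day 3 and day 7. Id2 lost that call without day 1 culture 2, any 1 of the day 3 cultures or day 7 culture 1, 2 or 5, and Sp8 without day 3 culture 1 or 2 or day 7 culture 1. Of the 8 genes of these lists called between day 1 and day 7, none was called in the first file alone and 2, Frzb and Id2, in the second. Frzb, Wif1 and Nkd2 were not called in non-cycling cells alone. In day 3 against day 1 no gene of the 8 lists was called.

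Genes most like 3 members were ranked by the Pearson correlation of log2 CPM over the 11 cultures, which share their days. For Lef1 these were Klhl8 (0.97), Fbln1 (0.95), Hnrnpa1 (0.94), Ppp1r1b (0.94) and Smarcd2 (0.94). The mean level of Klhl8 was 37.9 CPM on day 1, 87.7 on day 3 and 159 on day 7, an order of days shared with Lef1. For Axin2, with means of 11.9, 9.34 and 30.0 CPM on days 1, 3 and 7, they were Pggt1b (0.92), Fam20c (0.91), Cdc25a (0.90), Ppp1r3b (0.89) and Srf (0.88). For Tnfrsf19 they were Hsdl1, Ldlrad3, Ssr3, Alg12 and Ptp4a1, with values between 0.94 and 0.95. Across day 7 cells within cultures, the gene with the highest Spearman value was Fam49b for Lef1 (0.29), Pttg1 for Axin2 (0.26) and Dpysl2 for Tnfrsf19 (0.35), and Lef1 ranked second for Axin2.

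By gene span, some members overlap annotated genes on the opposite strand: Axin2 overlaps Gm11670, Lef1 Gm43352, Tcf7 A630014C17Rik and Tnfrsf19 Gm41168. Rnf43 with Gm25968, and Notum with Myadml2os and Notumos, are further such pairs. On the same strand, Lef1 overlaps Gm42449, Nkd1 Gm45496, Tcf7 Gm26551, Rnf43 1110028F11Rik and Tcf7l2 Ppnr. The SmartSeq2 method does not mark the strand, so reads of opposite-strand pairs cannot be told apart in any shared bases. The same is true of pairs on the same strand.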

How the data were processed

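The deposited values are expected counts, that is, reads assigned by estimation to each gene of each cell and not scaled, in 2 files of 384 cells. STAR 2.5.3a, RSEM 1.3.0 and the builds mm10 and GRCm38 are named in the submitters' processing notes, and the annotation release is not given in the sources used here. Of the deposited counts above 0, 10.6% were not whole, and all were rounded. Gene identifiers had the same version in GENCODE M21 for 93.2% of genes.

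Removed were 57 cells with under 50000 reads, fewer than 1500 detected genes or over 20% mitochondrial reads. Counts were summed per culture and tested in 1 fit over 11 cultures with day as the only term (edgeR 4.0.16, R 4.3.3, TMM, filterByExpr, quasi-likelihood test, Benjamini-Hochberg adjustment). The script was tested on simulated counts. Alternatives used DESeq2 1.42.0, limma 3.58.1 (log2 of the mean CPM plus 1), DESeq2 size factors, no filters, thinned cells, cycling or other cells alone, a replicate block, the file, and all cultures but 1. Same-numbered cultures of different days did not deviate together (correlations between -0.010 and 0.061), so the numbers were not taken to pair cultures.

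Named are all 10 members, the called genes of each pathway list or, with none called, the 2 with the smallest p of day 7 against day 1, and the genes most like Lef1, Axin2 and Tnfrsf19 (5 by cultures with a mean of at least 10 CPM, and up to 3 by cells). Sp8 in Lef1 cells was chosen after its values were seen. The members and lists were chosen with earlier results of these data known. Without molecular identifiers, PCR copies are counted as reads, and limits from counts cover counting error only.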

Additional observations from a re-analysis of the deposited data

Results flagged for a closer look

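Notum was the 1 member with a day 7 culture far from the other 4, by Dixon's test on the 5 cultures. Day 7 culture 1 had 0.434 CPM and a Notum read in 2.56% of its cells, and the other 4 cultures had none. Both values rest on the same 14 reads in 1 cell, and with 4 cultures at 0 a read in the fifth is always far from the others in this test, whatever its level. The test was run on 20 groups of values, of which chance flags about 1 in 20.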

How the results depend on the processing

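Over the 9 tested members, 3 comparisons and their alternatives, 568 of 621 values kept their direction and their side of the threshold, 38 lost a call, 7 gained one and 8, none of them called, changed sign. Sign changes from day 1 to day 3 were Axin2 with the second file alone (0.15), Tcf7 with the first file alone (-0.068) and Tnfrsf19 without day 3 culture 1 (between -0.074 and 0.71 without any 1 culture). From day 3 to day 7 they were Rnf43 with the second file alone (0.56), without day 3 culture 1 (0.26) and without day 7 culture 2 (0.064), between -0.34 and 0.26 without any 1 culture, and Tcf7 (-0.076) and Sp5 (-0.17) with the second file alone. The number of all genes called between day 1 and day 3 was 2, and it was 13 without the filter on low counts, 259 with DESeq2, 69 with limma, 16 with thinned cells, 1 with non-cycling and 12 with cycling cells only, 0 in the first file, 18 in the second file, 22 with the replicate block and between 0 and 5 without 1 culture. Between day 1 and day 7 it was 1241, and 2318 with DESeq2, 197 with non-cycling and 608 with cycling cells only, 15 in the first file, 125 in the second file and between 436 and 1380 without 1 culture. Between day 3 and day 7 it was 169, and 639 with DESeq2, 97 with non-cycling and 11 with cycling cells only, 96 with the replicate block, 102 with the file as a term, 0 in the first file, 20 in the second file and between 35 and 174 without 1 culture. Fits on 1 file or 1 class of cells hold fewer cultures or cells, and the cause of the other shifts was not tested. The replicate block ended the call of Tnfrsf19 between day 1 and day 7 (edgeR adjusted p 0.0783) and no other call of a member. Of 170 alternatives for shares of cells, 160 stayed within 1 SD.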
